A study of Mus musculus with 6 samples.

Results

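The phagocyte NADPH oxidase was described here through 5 of its subunit genes, Cyba, Cybb, Ncf1, Ncf4 and Rac2, taken by gene symbol from the 19086 genes of an expression table of mouse haematopoietic stem cells (HSCs). Each of the 5 symbols matched 1 row. The genes were chosen by a reading of their log2 values in both genotypes, so the difference between genotypes is given for them as a description without a test. The sort kept CD150+ CD48- LSK cells (no lineage markers, Sca-1 and Kit present) of C57BL/6 mice. They came from lethally irradiated CD45.1 recipients, 2 months after a transplant of CD45.2 bone marrow from Zfp521-CKO donors (3 libraries) or from Zfp521fl/fl donors carrying the floxed gene (3 libraries). The sources used here do not name the Cre driver, the age of the mice or the number of recipients behind each library, so the spread between libraries may be technical.

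The oxidase makes superoxide by moving electrons from NADPH across a membrane on to oxygen. Its membrane part, cytochrome b558, is a pair formed by Cybb (gp91phox, also called NOX2), the catalytic chain that carries the haem groups, and Cyba (p22phox), the partner that stabilises it. In a resting phagocyte the other subunits stay in the cytosol. On activation Ncf1 (p47phox, the organiser) docks on Cyba, and Ncf4 (p40phox), which binds a phosphoinositide of phagosome membranes, moves to the membrane with it, while the GTPase Rac2 arrives separately. Loss of a core subunit causes chronic granulomatous disease in humans. The enzyme is best known from neutrophils and macrophages.

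The values are log2(normalized count + 1), with 1 scaling factor per library and no division by gene length. Whole reads could be read back from them and came to 56237262, 30698602 and 3137596 in CKO-labelled replicates 1, 2 and 3, against 10689480, 7396932 and 7467901 in the fl/fl-labelled ones. Genes above 0 numbered 6449 to 16674 in the CKO-labelled libraries and 6134 to 10091 in the fl/fl-labelled ones. The targeted gene Zfp521 had 1519, 126 and 0 reads in CKO-labelled replicates 1, 2 and 3, against 0, 3 and 0 reads in the fl/fl-labelled ones. It thus goes against the labels, and higher and lower refer to the labels only. The gate was also checked: Slamf1, which encodes the sorted marker CD150, had 646, 0 and 0 reads in CKO-labelled replicates 1, 2 and 3, against 0 in every fl/fl-labelled library. Kit, another gate gene, had 8971, 7022 and 3 reads in the CKO-labelled libraries, against 127, 0 and 87 in the fl/fl-labelled ones. Ly6a (Sca-1) had 16238, 7516 and 714, against 37, 9291 and 6. RNA of Cd48, the marker that the sort excluded, was present in both groups. Its mean log2 value was 6.775 in the CKO-labelled libraries and 9.247 in the fl/fl-labelled ones, and the groups overlapped. The HSC markers Fgd5, Hoxb5, Ctnnal1 and Tek had no reads in CKO-labelled replicate 3 nor in any fl/fl-labelled library. Procr had 3 reads in CKO-labelled replicate 3 and none in the fl/fl-labelled ones. Other HSC markers did have fl/fl-labelled reads, such as Meis1 with 308, 518 and 311, and Hlf with 0, 140 and 340. Kit, Cd48, Meis1 and Hlf were named after their values were seen. Of the 16436 genes with a mean normalized count of at least 1, limma (Benjamini-Hochberg adjusted p under 0.05) called 0 higher (0%) and 0 lower (0%), with a smallest adjusted p of 0.613. At an unadjusted p under 0.05 it had 836 higher (5.09%) and 81 lower genes (0.493%). On the recovered reads, limma with voom weights called 147 higher and 14 lower. No subunit gene was among the genes called in the first of these fits, since it called none.

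Sequence upstream of the start site was at hand for 3 of the 5 genes, from RefSeq (GRCm38.p6, another build than the mm9 named for the deposited data). It is shown for both membrane genes, whose levels ran apart between libraries, and for Ncf1. Each window holds 250 bases before the start and 30 after it, 5′ to 3′ on the gene's strand. Capitals mark 4 short motifs searched on both strands, none of which overlapped another: GAGGAA (bound by PU.1), GGGCGG (Sp1), CCAAT (NF-Y) and TGTGGT (RUNX factors).
Cyba, chr8:122432911-122433190, minus strand: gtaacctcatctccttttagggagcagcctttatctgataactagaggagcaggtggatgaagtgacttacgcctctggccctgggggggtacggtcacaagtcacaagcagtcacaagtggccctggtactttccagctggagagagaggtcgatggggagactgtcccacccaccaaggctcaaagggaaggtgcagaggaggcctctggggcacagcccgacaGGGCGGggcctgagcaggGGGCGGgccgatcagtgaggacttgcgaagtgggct
Cybb, chrX:9469295-9469574, minus strand: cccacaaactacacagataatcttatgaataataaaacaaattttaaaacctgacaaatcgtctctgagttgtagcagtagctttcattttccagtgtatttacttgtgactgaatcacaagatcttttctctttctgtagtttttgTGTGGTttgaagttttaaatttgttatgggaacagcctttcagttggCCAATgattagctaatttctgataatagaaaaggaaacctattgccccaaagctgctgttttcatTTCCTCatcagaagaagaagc
Ncf1, chr5:134229596-134229875, minus strand: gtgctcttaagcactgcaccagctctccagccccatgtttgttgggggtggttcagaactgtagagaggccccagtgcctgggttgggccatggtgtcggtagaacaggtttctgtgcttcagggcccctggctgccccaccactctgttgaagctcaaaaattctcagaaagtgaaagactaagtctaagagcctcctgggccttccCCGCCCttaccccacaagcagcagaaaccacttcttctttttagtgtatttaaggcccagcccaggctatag

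Base composition differed between the membrane genes. The Cyba window had a GC content of 60.0% and 8 CpG, and 71.1% of the 32851 windows of this length in the RefSeq table had a lower GC content. The Cybb window had a GC content of 34.3% and 1 CpG, and 3.8% of the windows had a lower one. For Ncf1 the GC content was 53.9%, near the median of 52.5%. Cyba held GGGCGG at positions -24 and -6 from the start, and Ncf1 held it at -42 on the opposite strand. In Cybb, TGTGGT lay at -103, CCAAT at -56, and GAGGAA on the opposite strand at 10, after the start. These motifs are common: GAGGAA was in 26.0% of the windows, GGGCGG in 34.7%, CCAAT in 36.1% and TGTGGT in 15.6%. A match describes these letters and is not evidence of a bound site.

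Cyba (ENSMUSG00000006519) was lower in every CKO-labelled library than in any fl/fl-labelled one. Its log2 values were 11.67, 11.31 and 12.15 in CKO-labelled replicates 1, 2 and 3, against 13.85, 14.58 and 14.34 in the fl/fl-labelled ones. The groups did not overlap, and both were tight. As a rate, Cyba had 360, 266 and 297 reads per 1000000 reads of the library (RPM) in the CKO-labelled libraries, against 1298, 1751 and 1398 in the fl/fl-labelled ones, so the mean rate was 4.82-fold lower in the CKO-labelled group. Group means were 11.71 ± 0.42 in the CKO-labelled libraries and 14.26 ± 0.38 in the fl/fl-labelled ones (SD, n = 3 each), a difference of -2.55 log2 units (limma standard error 0.58). In bulk libraries fewer cells of a type and less RNA per cell cannot be told apart. The difference kept its sign and stayed between -2.76 and -2.35 with each library left out in turn. Of the 3065 genes that had reads in every library and only whole-read values, 86.2% had a larger SD than Cyba within the CKO-labelled group and 90.0% within the fl/fl-labelled group.

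Cybb (ENSMUSG00000015340), the partner of Cyba, instead spread over almost its whole range among the CKO-labelled libraries. Its log2 values were 1.55, 9.86 and 13.29 in CKO-labelled replicates 1, 2 and 3, against 12.54, 13.54 and 13.06 in the fl/fl-labelled ones. Replicate 3 lay inside the fl/fl-labelled range, and replicates 1 and 2 below it. CKO-labelled replicate 1, the deepest library, held 12 Cybb reads, or 0.213 RPM (95% exact Poisson interval 0.11 to 0.373), while the shallowest, replicate 3, held 2058 reads, or 656 RPM (628 to 685). Such intervals cover counting error only. The fl/fl-labelled libraries held 526, 851 and 578 RPM. The SD of Cybb was 6.04 log2 units among the CKO-labelled libraries and 0.50 among the fl/fl-labelled ones, and 0.1% of the 3065 genes had a larger SD in the CKO-labelled group. That share leaves out every gene at 0 in any library, where wide spreads also arise, and Cybb entered with 12 reads in CKO-labelled replicate 1. Fn1, named after its values were seen, is left out. It had a wider range than Cybb, with 0, 7.96 and 12.8 in CKO-labelled replicates 1, 2 and 3. The mean difference of -4.82 log2 units (standard error 2.33) rests on which library is kept: it was -1.48 without CKO-labelled replicate 1 and -7.34 without replicate 3.

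**Figure D1:**
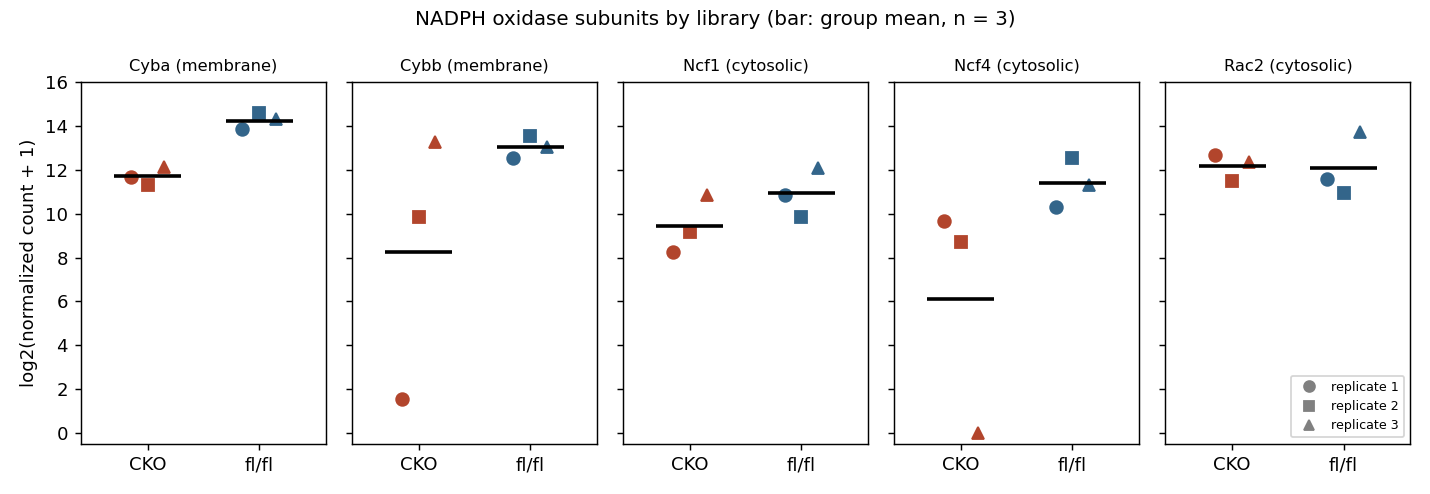
Deposited log2(normalized count + 1) of the 5 subunit genes in each library, with CKO (libraries labelled Zfp521-CKO) left of fl/fl (labelled Zfp521fl/fl), replicates by symbol and group means as bars. Cyba separates the groups, Cybb runs between 1.55 and 13.29 within the CKO-labelled group, Ncf4 is at 0 in CKO-labelled replicate 3, and Rac2 overlaps.

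The read ratio of both chains within a library does not depend on the scaling factor. There were 1687, 2.74 and 0.453 Cyba reads per Cybb read in CKO-labelled replicates 1, 2 and 3, against 2.47, 2.06 and 2.42 in the fl/fl-labelled ones. Replicate 2 was close to the fl/fl-labelled libraries, replicate 1 far above them and replicate 3 below them. The range of this ratio was 3725-fold in the CKO-labelled libraries and 1.20-fold in the fl/fl-labelled ones, where it was the most constant of the 10 pairs among the 5 genes. Ratios of Cyba to Rac2 behaved the other way, with a 1.79-fold range in the CKO-labelled libraries and an 8.14-fold range in the fl/fl-labelled ones. Per kilobase of the longest coding transcript in GENCODE M21, an annotation that may differ from the one counted, the Cyba level exceeded the Cybb level in all 6 libraries, by 2.89-fold in CKO-labelled replicate 3 and by 13.1-fold to 15.8-fold in the fl/fl-labelled libraries.

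**Figure D2:**
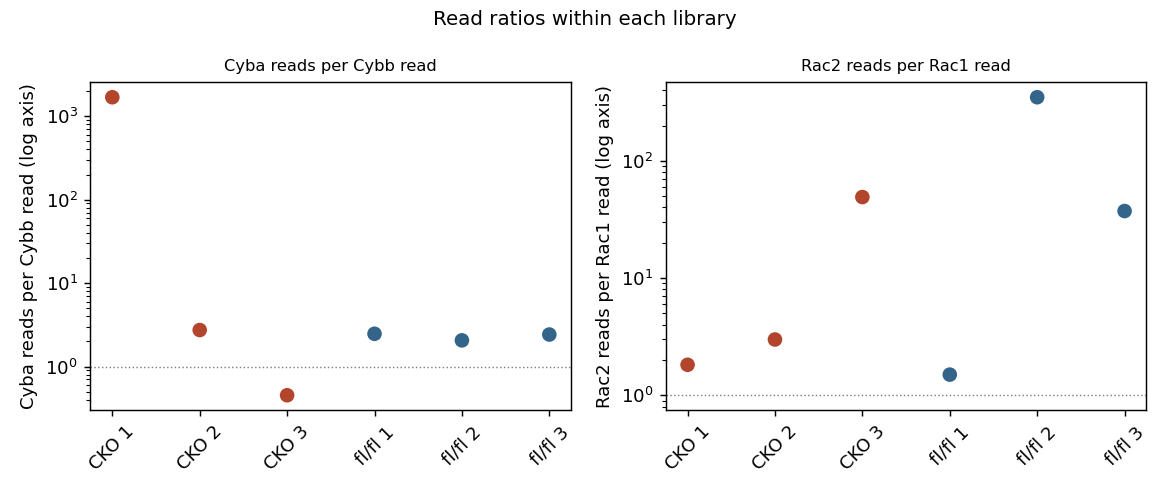
Reads of Cyba per read of Cybb (left) and of Rac2 per read of Rac1 (right) in each library, both on log axes, with the CKO-labelled libraries first. The left ratio is 0.453 to 1687 in the CKO-labelled libraries and 2.06 to 2.47 in the fl/fl-labelled ones, and the right one varies widely in both groups.

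The cytosolic subunits did not share 1 pattern. Ncf1 (ENSMUSG00000015950), the organiser, had log2 values of 8.26, 9.18 and 10.85 in CKO-labelled replicates 1, 2 and 3, against 10.86, 9.84 and 12.08 in the fl/fl-labelled ones. Replicate 3 of the CKO-labelled group lay inside the fl/fl-labelled range, so the groups overlapped. Means were 9.43 ± 1.32 in the CKO-labelled and 10.93 ± 1.12 in the fl/fl-labelled libraries (SD, n = 3 each), a difference of -1.50 (standard error 1.27) that was -0.91 without CKO-labelled replicate 1 and -2.21 without replicate 3. In RPM Ncf1 ranged from 33.7 to 121 in the CKO-labelled libraries and from 65.4 to 293 in the fl/fl-labelled ones.

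Ncf4 (ENSMUSG00000071715), the phosphoinositide-binding subunit, was below the fl/fl-labelled range in each CKO-labelled library, but 1 of them held no read of it. Its log2 values were 9.67, 8.71 and 0 in CKO-labelled replicates 1, 2 and 3, against 10.29, 12.56 and 11.33 in the fl/fl-labelled ones. These correspond to 90.1, 43.8 and 0 RPM in the CKO-labelled libraries, against 111, 432 and 174 in the fl/fl-labelled ones. The count of 0 in replicate 3 has a 95% exact Poisson upper limit of 1.18 RPM, and the floor of 3 reads is 0.956 RPM there. That 0 was not rare for such a library: of the 2915 genes with at least 43.8 RPM in both other CKO-labelled libraries, 694 (23.8%) had no read in replicate 3. Without it the difference of -5.27 (standard error 2.41) became -2.20, with no overlap between the groups.

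Rac2 (ENSMUSG00000033220), the haematopoietic Rac GTPase, had wholly overlapping groups. Its log2 values were 12.70, 11.51 and 12.36 in CKO-labelled replicates 1, 2 and 3, against 11.57, 10.96 and 13.73 in the fl/fl-labelled ones. All 3 CKO-labelled values lay inside the fl/fl-labelled range. Means were 12.19 ± 0.61 in the CKO-labelled and 12.09 ± 1.46 in the fl/fl-labelled libraries (SD, n = 3 each), a difference of 0.10 (standard error 0.89). Its sign turned to -0.15 without CKO-labelled replicate 1, to -0.16 without fl/fl-labelled replicate 1 and to -0.46 without fl/fl-labelled replicate 2, and the difference was 0.93 without fl/fl-labelled replicate 3. Per Cyba read, there were 2.04, 1.14 and 1.16 Rac2 reads in the CKO-labelled libraries, against 0.206, 0.0808 and 0.658 in the fl/fl-labelled ones, so the CKO-labelled ratios were all higher.

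In all, 2 of the 5 genes, Cyba and Ncf4, had groups that did not overlap, lower in the CKO-labelled libraries, where 337 of the 16436 genes tested (2.05%) did. Nothing is read from that count, since the genes were chosen with this contrast known. Leaving out CKO-labelled replicate 3 added Cybb and Ncf1, making 4 of 5, while the share of all genes became 4.32%. It was 2 of 5 without CKO-labelled replicate 1 (2.87% of all genes) and without replicate 2 (2.70%).

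**Figure D3:**
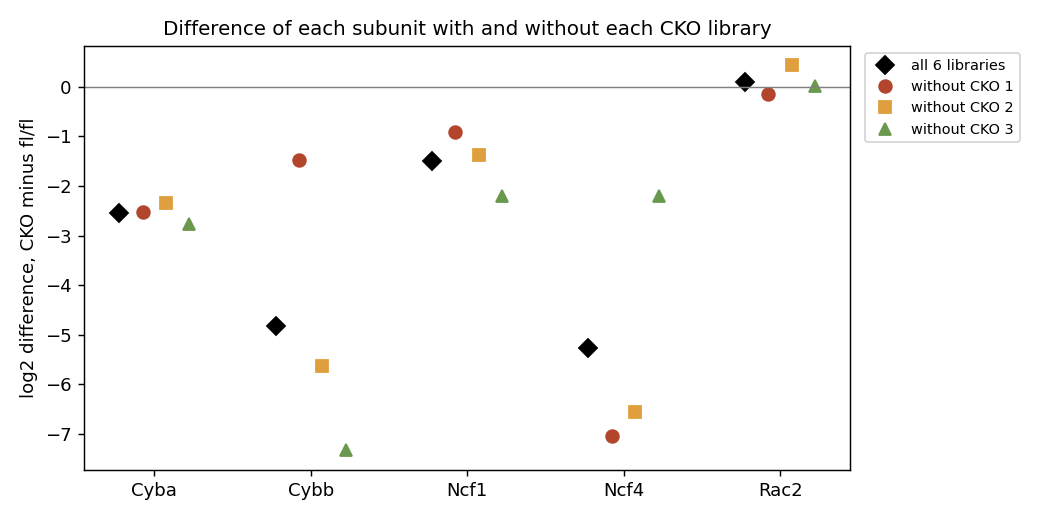
Log2 difference, CKO-labelled minus fl/fl-labelled, of each subunit with all 6 libraries (black diamonds) and without each CKO-labelled library in turn (coloured symbols). Cyba stays near -2.55, Cybb lies between -7.34 and -1.48, Ncf4 between -7.04 and -2.20, and Rac2 straddles 0.

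Set side by side, the membrane pair and the cytosolic trio differed more between CKO-labelled libraries than between genotypes. The mean log2 value of Cyba and Cybb minus that of Ncf1, Ncf4 and Rac2 was -3.60, 0.79 and 4.98 in CKO-labelled replicates 1, 2 and 3, against 2.29, 2.94 and 1.32 in the fl/fl-labelled ones. The CKO-labelled values lay on both sides of all fl/fl-labelled ones. Group means were 0.72 ± 4.29 in the CKO-labelled and 2.18 ± 0.82 in the fl/fl-labelled libraries (SD, n = 3 each). The difference between the groups, -1.46, turned to 0.70 without CKO-labelled replicate 1. With Ncf4 left out of the trio, the values were -3.87, 0.24 and 1.11 in the CKO-labelled libraries, against 1.98, 3.66 and 0.79 in the fl/fl-labelled ones, so replicate 3 then lay inside the fl/fl-labelled range. Over the 5 genes together, the mean log2 value was 8.77, 10.12 and 9.73 in the CKO-labelled libraries, against 11.82, 12.30 and 12.91 in the fl/fl-labelled ones. All CKO-labelled means lay lower, although Rac2 took no part in this. The difference of -2.81 compares with a median of 1.63 over all genes tested and of 0.03 over the 3140 genes with reads in every library.

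Levels of different genes were compared as RPM per kilobase of the longest coding transcript in GENCODE M21. Other transcript lengths were not tried, so the orders below hold for this choice of length, and close neighbours could change places with another. In CKO-labelled replicate 1 the order was Cyba with 484, Rac2 with 242, Ncf4 with 61.5, Ncf1 with 11.7 and Cybb with 0.0449, so the catalytic chain came last. In CKO-labelled replicate 2 it was Cyba with 358, Rac2 with 100, Ncf4 with 29.9, Ncf1 with 21.1 and Cybb with 20.4, and the last 2 lay close together. In CKO-labelled replicate 3 Cybb came second, with 138 after 399 for Cyba, ahead of Rac2 with 113 and Ncf1 with 42.0, and Ncf4 had no read. Cyba was first in every fl/fl-labelled library too, with 1745, 2353 and 1879 in replicates 1, 2 and 3. The order below it changed between these libraries: Cybb had 111, 179 and 122, Ncf4 75.5, 295 and 119, and Rac2 88.2, 46.6 and 303. Ncf1 was the lowest in all of them, with 56.8, 22.7 and 102.

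The summed share of neutrophil markers had the same order as Cybb across the CKO-labelled libraries, though not every marker did. The 15 neutrophil and granulocyte markers, led by S100a8, took 0.0362%, 1.46% and 12.9% of reads in CKO-labelled replicates 1, 2 and 3, against 15.2%, 12.6% and 14.0% in the fl/fl-labelled ones. Of the 15, 9 stood in the order of Cybb and 6 did not: Mpo, Prtn3, Ctsg, Ms4a3, Mmp8 and Mmp9, named after their values were seen. That order is also the reverse of the read depth of these libraries, and the share of all genes with it was not counted. Of the other lists, 5 of 14 monocyte and macrophage, 1 of 7 erythroid and 0 of 14 HSC markers stood in it. Prtn3, a granule protease gene, had log2 values of 10.95, 11.30 and 4.92 in CKO-labelled replicates 1, 2 and 3. All 15 had a lower mean in the CKO-labelled group, with a median difference of -4.78 beside 1.63 over all genes tested. For 5 of them the groups did not overlap, beside 2.05% of all genes tested that were lower without overlap, and none of the 15 was at 0 in a whole group. Cybb was lowest in replicate 1 and near the fl/fl-labelled level in replicate 3, while Cyba stayed at 266 to 360 RPM in all 3. Of the 154 genes with at least the rate of Cybb in both CKO-labelled replicates 2 and 3, 4 had under 1 RPM in replicate 1. Cybb is among these 4 by construction, since its own rates set the limits. The others were the neutrophil lactoferrin gene Ltf, Chil3 and AC157822.1, named after their values were seen. The 14 monocyte and macrophage markers in the table summed to 1176, 2847 and 9966 RPM in the CKO-labelled libraries, against 8545, 8812 and 4122 in the fl/fl-labelled ones. Of these, Adgre1 was at 0 in all CKO-labelled libraries and Cd68 in all fl/fl-labelled ones. The mean was lower in the CKO-labelled group for 10 of 14, with a median difference of -2.13. Of the 14 HSC markers 13 had a higher mean in the CKO-labelled group, with a median difference of 3.70 beside 1.63 over all genes tested. Their sums were 1176, 1367 and 242 RPM in CKO-labelled replicates 1, 2 and 3, against 54.5, 1407 and 109 in the fl/fl-labelled ones. The fl/fl-labelled maximum was mostly Ly6a, with 1256 RPM in that library; without Ly6a the sums were 887, 1123 and 14.7 in the CKO-labelled libraries, against 51.1, 151 and 108 in the fl/fl-labelled ones. Summed erythroid markers ranged from 929 to 2198 in the CKO-labelled and from 317 to 2131 in the fl/fl-labelled libraries, and T cell markers from 51.7 to 193 in the CKO-labelled and from 0 to 124 in the fl/fl-labelled libraries. B cell markers were at 0 except in CKO-labelled replicate 1, with 136. The part of other cell types in the subunit values was not tested.

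**Figure D4:**
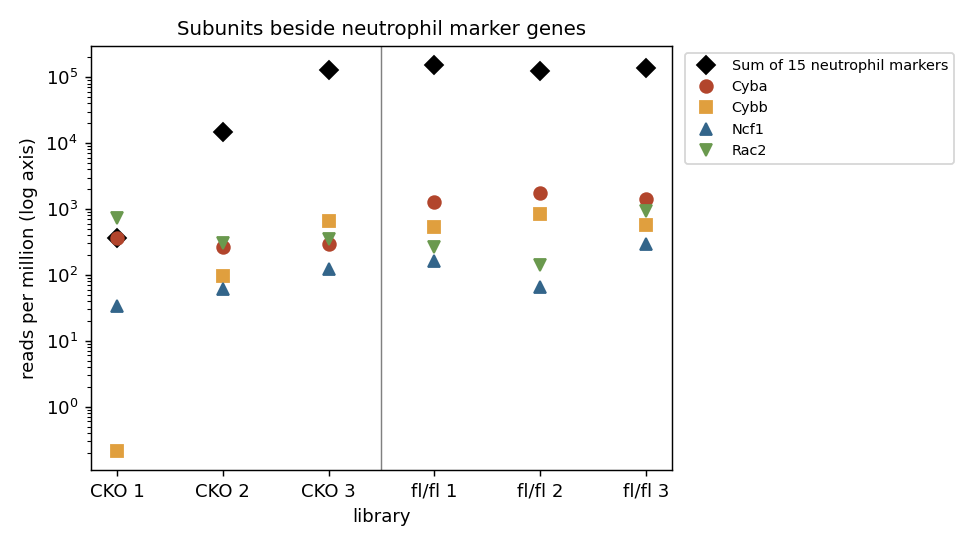
Reads per 1000000 (RPM), on a log axis, of the summed 15 neutrophil markers and of Cyba, Cybb, Ncf1 and Rac2 in each library, with the CKO-labelled libraries left of the line. Heights of different genes are not comparable because gene length is not divided out. Cybb and the marker sum are both lowest in CKO-labelled replicate 1 and near the fl/fl-labelled level in replicate 3, whereas Cyba is at 266 to 360 in all CKO-labelled libraries.

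Of a list of 16 further complex and family genes, 9 were in the table and 8 were tested, with 0 called higher and 0 called lower by limma and a median difference of 1.44, beside 1.63 over all genes. Rac1, the ubiquitous Rac, had 22782, 3123 and 22 reads in CKO-labelled replicates 1, 2 and 3, against 1906, 3 and 184 in the fl/fl-labelled ones. Reads of Rac2 per read of Rac1 were 1.82, 2.99 and 49.1 in the CKO-labelled libraries, against 1.50, 349 and 37.3 in the fl/fl-labelled ones, so the groups overlapped. The Rac genes are close paralogs, and how shared reads were counted is not given. Noxo1 and Noxa1, the organiser and activator of the epithelial oxidase NOX1, each had reads in 1 CKO-labelled library and in no fl/fl-labelled one. Hvcn1, the proton channel that balances the charge moved by the oxidase, had 410 reads in fl/fl-labelled replicate 1 and none elsewhere. BC017643, matched by gene ID to Cybc1 (Eros), a chaperone needed for the cytochrome b558 pair, had log2 values of 10.38, 8.56 and 6.94 in the CKO-labelled libraries, against 10.01, 0 and 9.77 in the fl/fl-labelled ones, and was named after its values were seen.

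None of the 16 signalling genes was called, and their median difference was 1.22. Pla2g4a, the cytosolic phospholipase that releases arachidonic acid, and Prkca, a protein kinase C, had no reads in any fl/fl-labelled library. Pla2g4a stood at 9.10, 10.09 and 0 in CKO-labelled replicates 1, 2 and 3, and Prkca at 7.25, 8.64 and 0 (limma adjusted p = 0.613 for each). Both were at 0 in the shallow replicate 3 as well, so neither gives a measured fold. Prex1, an exchange factor that loads Rac with GTP, was at 8.91, 7.86 and 3.96 in the CKO-labelled libraries, against 5.78, 0 and 0 in the fl/fl-labelled ones, where replicate 1 overlapped the CKO-labelled range.

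Among 12 transcription factors known to act on these genes, 0 were called and the median difference was 1.67. Irf8, which drives the monocyte lineage and acts on the promoter of CYBB in human cells, was at 5.35, 9.42 and 10.0 in CKO-labelled replicates 1, 2 and 3, against 11.82, 11.45 and 10.60 in the fl/fl-labelled ones. The groups did not overlap, with the CKO-labelled one lower, as for 2.05% of all genes tested. The difference of -3.04 was not called (limma adjusted p = 0.613), in a fit that called no gene. Cebpe is a regulator of late granulocyte maturation. It was at 0, 5.35 and 9.75 in the CKO-labelled libraries, against 10.38, 8.40 and 11.49 in the fl/fl-labelled ones. Of the 12 factors, 2 stood in the order of Cybb among the CKO-labelled libraries, Irf8 and Cebpe, and 10 did not. Rela, the NF-kB subunit p65, differed by 5.61 and lay above the fl/fl-labelled range in all CKO-labelled libraries, as 7.17% of all genes tested did (limma adjusted p = 0.613), but its row lies in a block of 75 rows holding values that are not whole reads. Spi1 (PU.1), named after its values were seen, was at 10.62, 10.04 and 7.71 in the CKO-labelled libraries, against 11.42, 10.20 and 11.11 in the fl/fl-labelled ones, and its groups overlapped.

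**Figure D5:**
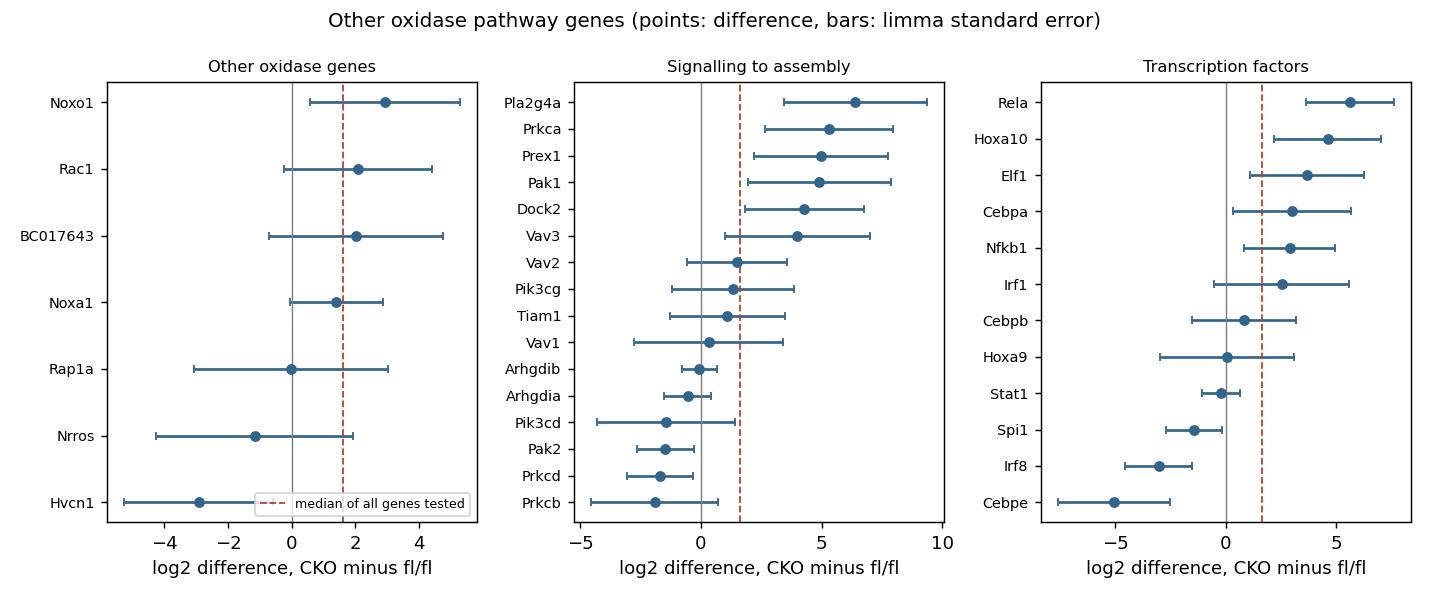
Log2 difference, CKO-labelled minus fl/fl-labelled, of tested genes of each list (points) with limma standard errors (bars). The dashed line is the median of all genes tested, 1.63. Most bars are several log2 units wide, and none of the genes shown passed the adjusted threshold.

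Genes whose 6 values ran most like the mean centred profile of the 5 subunits were sought among 2006 named genes with reads in every library. This profile correlated with Cyba at r = 0.92 and with Rac2 at r = 0.01 over the 6 libraries. The 5 closest genes were Dnmt1 (Pearson's r = 0.965), Rbms1 (0.962), Pogz (0.961), Ifitm6 (0.953) and Uvrag (0.943). Of these, 4 lie in the block of 75 rows with values that are not whole reads, and Ifitm6 is the exception. Outside that block, the next closest to Ifitm6 were Etf1 (0.928), Gbe1 (0.91) and Mpo (0.907), named after their values were seen. Mpo encodes myeloperoxidase, which uses hydrogen peroxide derived from the oxidase, and stood at 8.25, 9.22 and 8.24 in CKO-labelled replicates 1, 2 and 3, against 13.71, 12.50 and 12.43 in the fl/fl-labelled ones. With 6 points that share libraries and depth, these correlations are descriptions.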

How the data were processed

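Total RNA of sorted HSCs went through a micro-scale column kit and standard library preparation, per the labels. Bowtie, DESeq2 1.26.0 and mm9 stand in the submitters' processing notes without a role, and no source used here names the read counter. Although the table's name says FPKM, the deposited numbers are on a log2 scale, of a read count over 1 factor per library, plus 1: 99.7% of 61139 values above 0 were whole reads within 0.001 read, and the 213 others lay in 75 adjacent rows that hold no subunit gene. All 6 columns matched a sample. The members and gene lists were chosen with earlier results of these data known. limma 3.58.1 in R 4.3.3 was fitted to all 6 libraries after a filter at a mean normalized count of 1. Settings were genotype only, eBayes with a trend, two-sided, Benjamini-Hochberg threshold 0.05. The fit was tried on simulated data with large changes in well-expressed genes only. That trial does not show its power for smaller changes or at the spread of these libraries. The planned test assumed FPKM; since values were already logged, they were used as deposited. Genes named are the 5 subunits, Zfp521, Rac1, the 3 genes of smallest p in each list, the 5 closest profiles, and markers that are most abundant or at 0 in a whole group; 1 gene that the rule also names is not reported here. Counts of recovered reads off the whole-read scale were rounded. Floors are 3 reads and intervals 95%, covering counting error only. Alternatives were a pseudocount of 0.1, no filter, a filter at 5, other scalings, weights, a replicate block, voom, thinned reads, single libraries left out and, added after seeing the data, the table without the 75 rows.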

Additional observations from a re-analysis of the deposited data

How the results depend on the processing

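The mean difference of the 5 subunits was -2.81 and lay between -3.10 and -2.42 with single libraries left out; scaling each library to a total of 1000000 gave -2.13. The membrane minus cytosolic difference ran from -3.59 to 0.70 with libraries left out, so 1 library sets its sign. Quantile normalization moved the median of all genes by -1.41 and the Ncf1 difference to -2.91; scaling to a total moved the median by -0.33. The sign of all 5 subunit differences was kept under the scalings, the pseudocount of 0.1 and thinned reads. Counts of called genes were less stable. Quantile normalization called 5 higher and 12 lower genes, array weights 1632 and 28, and voom 147 and 14. With libraries left out the counts ran from 0 to 2496 higher and from 0 to 34 lower, with calls only without CKO-labelled replicate 3. Calls among the pathway genes were 3 with array weights and 0 to 3 with libraries left out; without CKO-labelled replicate 3 they were Prkca, Pla2g4a and Hoxa10, all without reads in the fl/fl-labelled libraries. The causes were not tested. With the replicate number as a block limma called 0 genes (948 at an unadjusted p under 0.05). Same-numbered libraries correlated at 0.12, 0 and -0.03 in their deviations over 3065 genes. Whether they share a batch or cohort is not given, and these correlations cannot settle it. In the shallowest library 3 reads are a log2 value of 3.96, which limits statements on low genes.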
